A study of Homo sapiens with 6 samples.

Results

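Complex I, or NADH:ubiquinone oxidoreductase, is the entry point of the mitochondrial respiratory chain. It takes electrons from NADH in the N module, passes them along iron-sulfur clusters through the Q module to ubiquinone, and uses the energy to pump protons across the membrane arm. The nuclear genes of its subunits carry symbols that start with NDUF, and those of dedicated assembly factors, which do not stay in the finished enzyme, start with NDUFAF. The signals of these genes were compared in growing human diploid fibroblasts and in the same cells undergoing oncogene-induced senescence (OIS), in which an active oncogene stops the cell cycle and, as known for OIS, mitochondrial respiration changes.

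All genes whose symbol starts with NDUF on probe sets naming that gene alone were taken, which gave 44 of 19775 genes. They comprised 33 subunit genes, 8 NDUFAF genes and 3 non-coding genes named after neighbouring subunit genes, and all 44 were among the 13398 genes tested. NDUFS5, NDUFS8 and NDUFC2 lay only on probe sets naming several genes, and the subunits encoded by mitochondrial DNA were not analysed here. NDUFA4 and NDUFA4L2 now carry the symbols COXFA4 and COXFA4L2, since the NDUFA4 protein is known as a part of complex IV, and were set apart.

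The 6 arrays measured IMR90 cells, a fetal lung fibroblast line, that expressed a 4-hydroxytamoxifen (OHT) inducible ER:Ras fusion in all 3 states. Growing cells had no OHT and no siRNA. Ctrl-KD OIS cells had 100 nM OHT for 6 days and a control siRNA for the last 4 days, and RB-KD OIS cells had the same OHT treatment and a mixture of siRNAs against RB1, which encodes the retinoblastoma protein RB. The OIS states are called Ctrl-KD and RB-KD cells from here on. Each state had 2 arrays from independent experiments. Against growing cells, Ras induction and siRNA transfection cannot be told apart, since both OIS states had both. All values are Affymetrix MAS5 signals on a linear scale, a gene was read from its brightest probe set, and changes are log2 fold changes with the standard error of a limma fit. A gene is called when its Benjamini-Hochberg adjusted p over all tested genes was under 0.05, and n was 2 arrays in every state.

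RB1 itself had signals of 2627 and 2528 in growing cells, 2578 and 1915 in Ctrl-KD cells, and 222 and 229 in RB-KD cells. The 7 cell cycle genes examined summed to 18740 and 18870 in growing cells, to 2288 and 3798 in Ctrl-KD cells and to 7277 and 8722 in RB-KD cells. All 7 were lower in Ctrl-KD than in growing cells, where 21.2% of all tested genes were lower. In RB-KD against growing cells, 5 stayed lower and 1, MCM3, was higher, beside 19% and 18.5%. Between the OIS states, 3 were higher (MCM3, MCM5 and CDK1) and 4 were not called, beside 12.6% higher over all tested genes. MCM3 read 1657.5 and 1359.9 in growing, 342.3 and 424.2 in Ctrl-KD and 3302.5 and 3709 in RB-KD cells. Of the 7 fibroblast markers, 5 were lower in Ctrl-KD and 3 in RB-KD cells than in growing cells, beside the same 21.2% and 19%. VIM and COL1A1 were not called in either state. Of the markers of other cell types, CDH1 and CDH5 read at most 17.7 on any array, PTPRC at most 51.5 and EPCAM at most 140.5. KRT18, at 3016 to 3763, and TEK, at 302 to 1379, were brighter. TEK was called lower in Ctrl-KD than in growing cells (-1.82) and higher in RB-KD than in Ctrl-KD cells (1.94). The other 2 tested endothelial markers were not called in these comparisons. The summed epithelial signal was 3143 to 4071 over the 6 arrays and came mostly from KRT18. The endothelial sum was 1286 and 1417 in growing, 510 and 532 in Ctrl-KD and 1419 and 1557 in RB-KD cells, which was the course of TEK, and the blood sum was 80.8 to 169.5. The part of the cell cycle and of these markers in the complex I values was not tested, and in such bulk RNA, fewer cells of a kind and less RNA per cell cannot be told apart.

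The subunit genes were bright, with signals between 1536 and 23947, and the NDUFAF genes lay between 466.6 and 5675, whereas the median tested gene read 552 to 607 on an array. Replicate arrays differed less for the subunit genes than for the tested genes at large: the median standard deviation of the log2 signal was 0.046 in growing, 0.078 in Ctrl-KD and 0.045 in RB-KD cells, against 0.094, 0.14 and 0.13 over all tested genes. Small changes could therefore pass the test in these genes. In Ctrl-KD cells, replicate 2 read higher than replicate 1 for 26 of 33 subunit genes and for all 8 NDUFAF genes, against 55.1% of all tested genes. In RB-KD cells it did so for 19 and 7, and in growing cells for 23 and 2, against 53.0% and 49.7%.

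**Figure D1:**
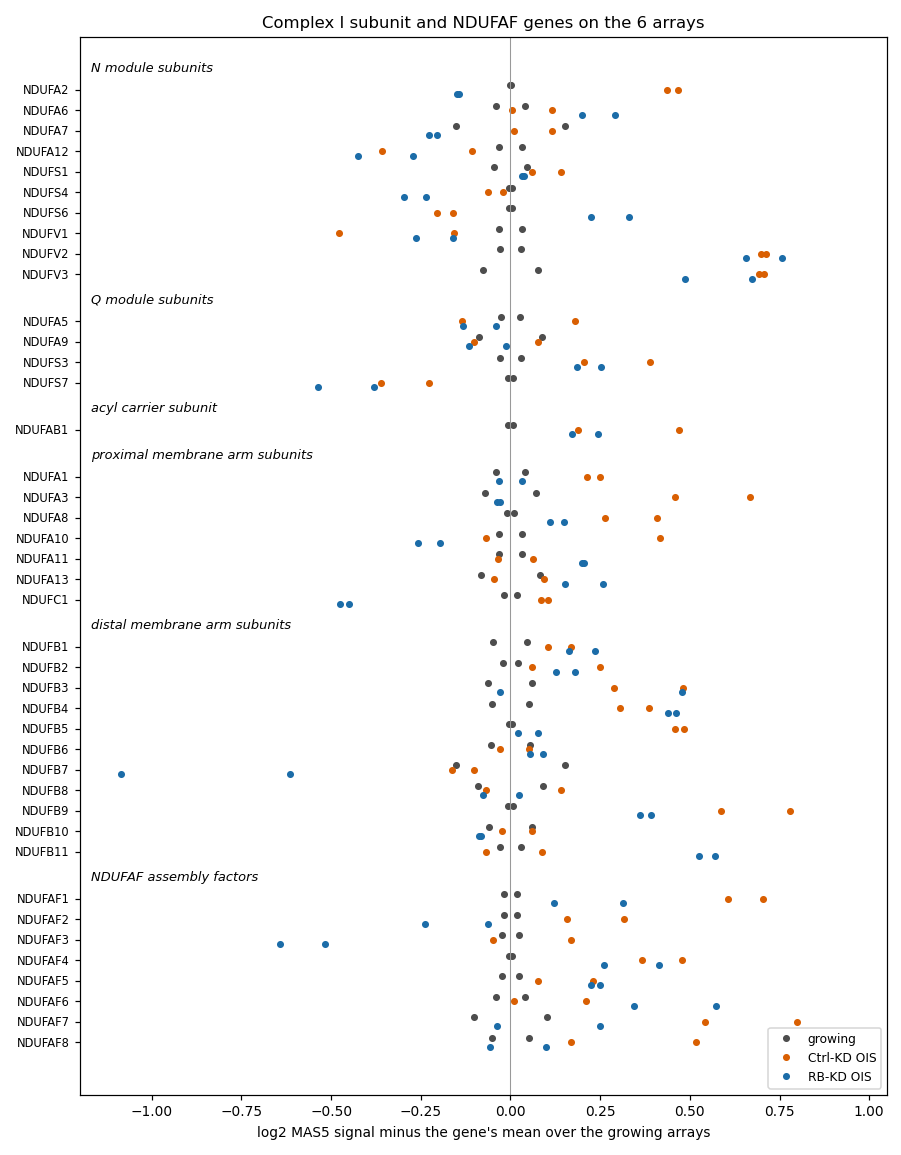
Log2 MAS5 signal of each complex I subunit and NDUFAF gene on the 6 arrays, less the gene's mean over the growing arrays (x axis), grouped by module (y axis). Points are single arrays coloured by state. NDUFV2 and NDUFV3 lie to the right in both OIS states, NDUFA2, NDUFA3 and NDUFB5 in Ctrl-KD cells, and NDUFB7, NDUFC1 and NDUFAF3 lie to the left in RB-KD cells.

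In Ctrl-KD cells, 11 of the 33 subunit genes were higher than in growing cells, 1 was lower and 21 were not called. Over all tested genes, 20.5% were higher and 21.2% lower. The median change of the subunit genes was 0.096 on the log2 scale, with 26 positive and 7 negative values, and that of all tested genes was -0.0094. It was 0.0607 without Ctrl-KD replicate 2, and 0.052 after quantile normalization, where that of all tested genes was 0.0398. The called rises ran from 1.17-fold (NDUFA1) to 1.63-fold (NDUFV2). They were spread over the enzyme: 3 of 10 subunits of the N module, 1 of 4 of the Q module, the acyl carrier NDUFAB1, 3 of 7 of the proximal and 3 of 11 of the distal membrane arm. The count of rises was 7 without growing replicate 1 and 6 without growing replicate 2. The 1 fall was 0 without growing replicate 1, growing replicate 2 or Ctrl-KD replicate 1, and 3 without Ctrl-KD replicate 2. After quantile normalization there were 7 rises and 4 falls.

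In RB-KD cells, 7 subunit genes exceeded their growing level and 5 fell short of it, while over all tested genes 18.5% were higher and 19% lower. The median change was 0.050, beside -0.015 over all tested genes. It was 0.0806 without growing replicate 1 and 0.032 without RB-KD replicate 2, and -0.000109 after quantile normalization, where that of all tested genes was 0.0155. The count of rises was 4 without either growing array and 11 without either Ctrl-KD array, which serve this comparison through the shared spread. The count of falls was 3 without either growing array or RB-KD replicate 1. Centring each array on its median moved the median of all tested genes from -0.015 to 0.095, and the subunit genes were then 13 higher and 3 lower.

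Between the OIS states, RB-KD cells had higher signals than Ctrl-KD cells in 2 subunit genes and lower in 6, and 25 were not called. Over all tested genes, 12.6% were higher and 11.6% lower. The subunits' median change was -0.108, with 23 negative and 10 positive values, beside -0.023 over all tested genes. This median was -0.0616 without Ctrl-KD replicate 2, -0.0621 without RB-KD replicate 1 and -0.167 without Ctrl-KD replicate 1. The count of falls was 4 without Ctrl-KD replicate 2 or RB-KD replicate 2 and 8 without Ctrl-KD replicate 1. The comparisons share arrays in pairs, so a gene that is high in Ctrl-KD cells enters both comparisons with that state.

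**Figure D2:**
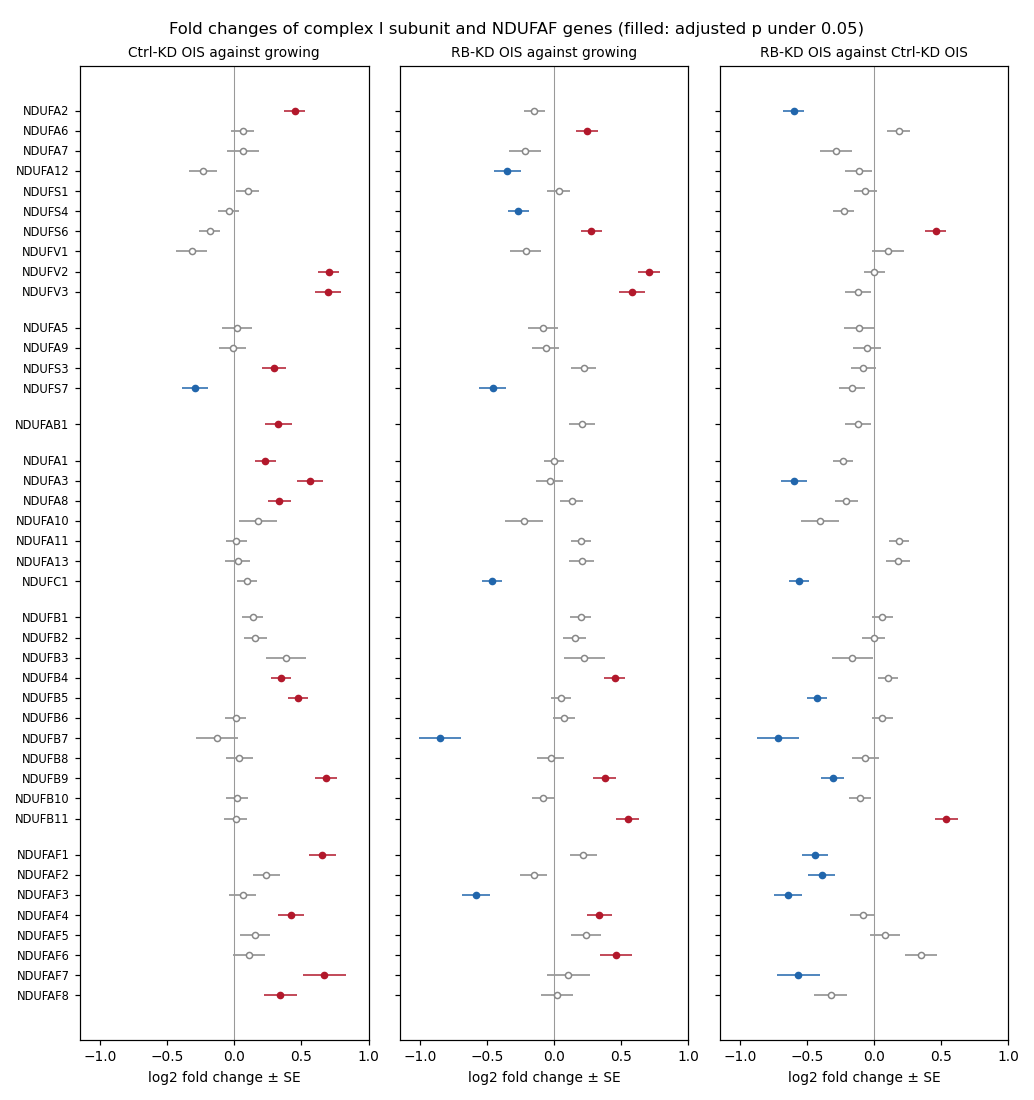
Log2 fold change (x axis) with its standard error (bars) for each subunit and NDUFAF gene (y axis, in the order of the modules) in the 3 comparisons, n = 2 arrays in each state. Filled points passed an adjusted p of 0.05, red for higher and blue for lower. The left panel holds 1 blue point, NDUFS7, and the right panel 2 red points, NDUFS6 and NDUFB11, with 6 blue subunits and 4 blue NDUFAF genes.

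The core subunits are those that have bacterial counterparts. Of the 7 nuclear core subunit genes listed, 5 were measured on probe sets of their own. NDUFV2, which holds an iron-sulfur cluster of the N module, had signals of 5577 and 5358 in growing cells, 8864 and 8950 in Ctrl-KD cells and 9234 and 8620 in RB-KD cells. Both OIS states lay above the growing arrays and overlapped each other. Its log2 change was 0.70 ± 0.08 (adjusted p = 9.44e-05) in Ctrl-KD and 0.71 ± 0.08 (0.000124) in RB-KD against growing cells. The difference between the OIS states was 0.002 ± 0.08. NDUFV1, which binds FMN and NADH beside NDUFV2, did not move with it. It read 2673 and 2558 in growing, 1877 and 2343 in Ctrl-KD and 2338 and 2180 in RB-KD cells, and its change of -0.32 ± 0.12 in Ctrl-KD cells was not called (adjusted p = 0.0557). The call appeared without Ctrl-KD replicate 2, with a change of -0.48 and an adjusted p of 0.00866.

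NDUFS1, the large iron-sulfur subunit of the N module, was nearly level, at 3000 and 2816 in growing, 3205 and 3030 in Ctrl-KD and 2972 and 2984 in RB-KD cells. Its changes were 0.10, 0.03 and -0.07, none called. NDUFS3, a core subunit of the Q module, read 4121 and 4289 in growing, 4849 and 5503 in Ctrl-KD and 4784 and 5004 in RB-KD cells. Both OIS states lay above the growing arrays. The change was 0.30 ± 0.09 (adjusted p = 0.026) in Ctrl-KD cells, a call lost without growing replicate 1 (0.166), growing replicate 2 (0.0944) or Ctrl-KD replicate 2 (0.108). In RB-KD cells the change of 0.22 was called without either Ctrl-KD array (0.0433 and 0.0439).

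NDUFS7, which holds the last iron-sulfur cluster before ubiquinone, went the other way. It had signals of 2682 and 2658 in growing, 2078 and 2280 in Ctrl-KD and 1841 and 2049 in RB-KD cells, so that both OIS states lay below the growing arrays. Its change was -0.29 ± 0.10 (adjusted p = 0.0384) in Ctrl-KD and -0.46 ± 0.10 (0.00545) in RB-KD cells. The first call was lost without growing replicate 1 (0.171), growing replicate 2 (0.15) or Ctrl-KD replicate 1 (0.143). The second was kept whichever array was left out.

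Among the accessory subunits, which surround the core, NDUFV3 of the N module and NDUFB4 of the distal membrane arm were also higher in both OIS states. NDUFV3 read 2424 and 2694 in growing, 4168 and 4133 in Ctrl-KD and 3581 and 4075 in RB-KD cells. Its changes against growing cells were 0.70 ± 0.10 (adjusted p = 0.000402) and 0.58 ± 0.10 (0.0015). NDUFB4 had 17824 and 16611 in growing, 22477 and 21282 in Ctrl-KD and 23338 and 23690 in RB-KD cells. Its changes were 0.35 ± 0.08 (adjusted p = 0.00563, and 0.0905 without growing replicate 2) and 0.45 ± 0.08 (0.00155). Neither gene was called between the OIS states.

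NDUFB9, a distal subunit, was highest in Ctrl-KD cells and in between in RB-KD cells: it read 10908 and 10801 in growing, 16311 and 18614 in Ctrl-KD and 13940 and 14247 in RB-KD cells. The states did not overlap. Its change was 0.68 ± 0.08 (adjusted p = 0.000184) in Ctrl-KD and 0.38 ± 0.08 (0.0068) in RB-KD against growing cells. The second call was lost without growing replicate 1 (0.0544) or growing replicate 2 (0.0619). Between the OIS states the change was -0.31 ± 0.08 (0.0285), which stayed called without Ctrl-KD replicate 1 and was lost without each of the other 5 arrays, with adjusted p values of 0.0701 to 0.118.

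In 3 further subunit genes, signals were higher in Ctrl-KD cells than in both other states, which lay close to each other. NDUFA2, a small N module subunit, read 3730 and 3733 in growing, 5044 and 5159 in Ctrl-KD and 3376 and 3363 in RB-KD cells. NDUFA3, a single-span protein of the proximal membrane arm, read 3059 and 3370, then 5099 and 4412, then 3128 and 3146. NDUFB5, a distal subunit, read 6842 and 6886, then 9424 and 9604, then 7244 and 6970. Each of the 3 genes thus had its Ctrl-KD arrays above all 4 others. The changes in Ctrl-KD against growing cells were 0.45 ± 0.08 for NDUFA2 (adjusted p = 0.00149), 0.56 ± 0.10 for NDUFA3 (0.00157) and 0.47 ± 0.07 for NDUFB5 (0.000861). RB-KD against Ctrl-KD cells gave -0.60 ± 0.08 (0.000859), -0.60 ± 0.10 (0.00271) and -0.42 ± 0.07 (0.00388) in the same order. RB-KD against growing cells gave -0.15, -0.03 and 0.05, none called. Leaving out any 1 array kept all 6 calls. With the mean over all probe sets of a gene in place of the brightest, both NDUFA2 calls were lost. The changes of NDUFA2 became 0.30 (0.679) in Ctrl-KD against growing cells and 0.053 (0.956) between the OIS states. Its other probe sets read only 6.8 to 49.3 and 2.3 to 36.1 and were not tested. Without the variance trend in limma, the fall of NDUFB5 had an adjusted p of 0.0505.

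The remaining rises in Ctrl-KD cells were smaller. NDUFA8 changed by 0.34 ± 0.09 (adjusted p = 0.0115) and NDUFA1 by 0.23 ± 0.08 (0.0378), both of the proximal membrane arm, and NDUFAB1, the mitochondrial acyl carrier protein, by 0.33 ± 0.10 (0.0243). All 3 calls were lost without growing replicate 1 (0.0878 for NDUFA8, 0.275 for NDUFA1 and 0.111 for NDUFAB1) or growing replicate 2 (0.07, 0.115 and 0.122). Those of NDUFA1 (0.0782) and NDUFAB1 (0.0827) were also lost without Ctrl-KD replicate 2. None of the 3 was called between the OIS states, where the changes were -0.21, -0.23 and -0.12. Without Ctrl-KD replicate 1, NDUFAB1 was called lower there (-0.26, 0.0413).

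The 2 subunit genes higher after RB knockdown, NDUFS6 and NDUFB11, were not higher in Ctrl-KD cells. NDUFB11, a single-span protein of the distal arm, read 4942 and 5142 in growing, 4810 and 5355 in Ctrl-KD and 7260 and 7490 in RB-KD cells. Its RB-KD arrays lay above all others, with changes of 0.54 ± 0.09 (adjusted p = 0.00215) against Ctrl-KD and 0.55 ± 0.09 (0.000939) against growing cells. NDUFS6, a zinc-binding N module subunit, read 10162 and 10213, then 8834 and 9113, then 12800 and 11912, and here the Ctrl-KD arrays were the lowest. Its changes in RB-KD cells were 0.46 ± 0.08 (0.00276) against Ctrl-KD and 0.28 ± 0.08 (0.0189) against growing cells. The last of these calls was lost without growing replicate 1 (0.13), growing replicate 2 (0.122) or RB-KD replicate 1 (0.1).

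NDUFB7 and NDUFC1 were lower in RB-KD cells than in both other states. NDUFC1, at the proximal membrane arm, read 9040 and 9277 in growing, 9852 and 9721 in Ctrl-KD and 6701 and 6587 in RB-KD cells. Its changes were -0.56 ± 0.07 (adjusted p = 0.000876) against Ctrl-KD and -0.46 ± 0.07 (0.00108) against growing cells. Both calls held without any 1 array and were lost with the mean over all probe sets, at -0.40 (0.196) and -0.54 (0.0655). NDUFB7, a distal subunit on the side of the intermembrane space, read 3150 and 3895, then 3126 and 3267, then 2289 and 1649. The RB-KD arrays were the lowest but differed by more from each other than in most members. Its change was -0.85 ± 0.16 (0.00246) against growing and -0.72 ± 0.16 (0.0105) against Ctrl-KD cells. The latter call was lost without Ctrl-KD replicate 2 (0.0532) or RB-KD replicate 2, where the change was -0.48 (0.0552), and without the variance trend (0.0960). With the mean over all probe sets both NDUFB7 calls were lost, at -0.36 (0.348) against growing and -0.11 (0.813) against Ctrl-KD cells.

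**Figure D3:**
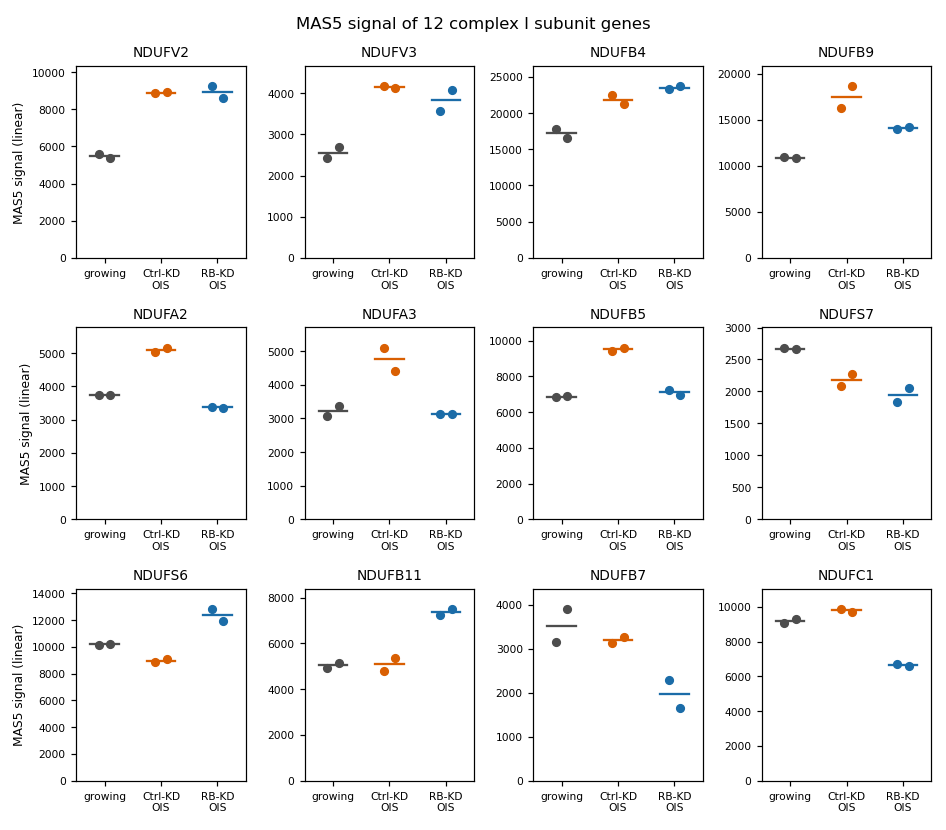
MAS5 signal on a linear scale from 0 (y axis) of 12 subunit genes in growing, Ctrl-KD and RB-KD cells (x axis). Points are single arrays and lines their mean, n = 2 in each state. NDUFA2, NDUFA3 and NDUFB5 are high in Ctrl-KD cells, NDUFS6 and NDUFB11 are high and NDUFB7 and NDUFC1 low in RB-KD cells.

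The DNA before the start sites of the members was read from RefSeq promoters on GRCh38.p14, 250 bases upstream, which 31 of the 33 subunit genes and 7 of the 8 NDUFAF genes had. Both strands were searched for short motifs. Each member was read from 1 promoter, whereas background shares are over all 35116 such promoters. These outnumber the 19775 genes of the series, so members and background were not counted over the same kind of set. The core of the NRF1 element, TGCGCA, which reads the same on both strands, lay before 9 of 31 subunit genes (NDUFA3, NDUFA6, NDUFA8, NDUFA9, NDUFA12, NDUFB4, NDUFB11, NDUFS6 and NDUFS7) and before 0 of 7 NDUFAF genes, against 6.89% of all promoters. The E2F motifs are bound by the factors that RB restrains. Of the subunit genes, TTTCCCGC lay before NDUFA13 alone (3.23%, beside 1.39% of all promoters) and TTTGGCGC before NDUFS6 alone (3.23%, beside 0.55%). Neither lay before an NDUFAF gene. An ETS motif, CCGGAAG, lay before 5 subunit genes (16.1%) and NDUFAF4 (14.3%), beside 8.52% of all promoters. The SP1 motif GGGCGG lay before 20 subunit genes (64.5%) and 1 NDUFAF gene (14.3%), beside 42.6% of all promoters. The CCAAT box lay before 7 subunit genes (22.6%) and 1 NDUFAF gene (14.3%), beside 32% of all promoters. The YY1 motif AAGATGGC lay before no member, beside 1.36% of all promoters. The promoters below are shown because these genes lay among the largest rises and falls between the OIS states and held the NRF1 core. They are chr19:54102605-54102854 on the plus strand for NDUFA3, chr5:1801157-1801406 on the plus strand for NDUFS6 and chrX:47144703-47144952 on the minus strand for NDUFB11, 5′ to 3′ along each gene. Capitals mark the NRF1 core, at -171, -47 and -31 from the start in that order, and in NDUFS6 also TTTGGCGC, at -67.
NDUFA3: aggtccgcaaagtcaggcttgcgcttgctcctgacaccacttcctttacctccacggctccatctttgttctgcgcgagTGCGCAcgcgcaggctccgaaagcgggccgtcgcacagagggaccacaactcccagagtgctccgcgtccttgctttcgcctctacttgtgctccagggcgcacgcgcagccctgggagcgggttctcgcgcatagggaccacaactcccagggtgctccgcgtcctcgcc
NDUFS6: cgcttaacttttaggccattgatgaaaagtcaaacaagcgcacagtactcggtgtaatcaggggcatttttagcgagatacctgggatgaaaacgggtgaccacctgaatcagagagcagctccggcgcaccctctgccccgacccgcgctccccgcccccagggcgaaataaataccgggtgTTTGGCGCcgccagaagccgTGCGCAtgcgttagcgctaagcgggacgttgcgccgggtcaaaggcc
NDUFB11: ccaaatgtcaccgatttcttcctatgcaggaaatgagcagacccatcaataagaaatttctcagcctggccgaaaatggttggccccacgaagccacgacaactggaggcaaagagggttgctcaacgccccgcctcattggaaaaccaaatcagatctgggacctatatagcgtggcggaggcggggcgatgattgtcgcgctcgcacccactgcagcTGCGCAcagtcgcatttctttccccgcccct
Of the 3 genes, NDUFA3 was lower and NDUFS6 and NDUFB11 were higher in RB-KD than in Ctrl-KD cells. Binding to these sequences was not measured.

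Of the N module, 3 further subunits differed between RB-KD and growing cells. NDUFA12 read 11048 and 11557 in growing, 8817 and 10481 in Ctrl-KD and 8414 and 9368 in RB-KD cells, a change of -0.35 ± 0.10 (adjusted p = 0.0234). NDUFS4, a late-joining subunit that stabilizes the N module, read 4670 and 4645, then 4460 and 4589, then 3790 and 3952, a change of -0.27 ± 0.08 (0.026). NDUFA6 changed by 0.24 ± 0.08 (0.0434). These calls did not hold without single arrays: leaving out growing replicate 1 gave 0.0821, 0.153 and 0.273, growing replicate 2 gave 0.143, 0.144 and 0.125, and RB-KD replicate 1 gave 0.137, 0.104 and 0.179 for NDUFA12, NDUFS4 and NDUFA6. Without RB-KD replicate 2, NDUFS4 (0.0531) and NDUFA6 (0.0655) were lost too. NDUFA12 was called lower in Ctrl-KD cells without Ctrl-KD replicate 2 (-0.36, 0.0183).

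The other 14 subunit genes were called in no comparison. They were NDUFS1, NDUFV1 and NDUFA7 of the N module, NDUFA5 and NDUFA9 of the Q module, NDUFA10, NDUFA11 and NDUFA13 of the proximal arm, and NDUFB1, NDUFB2, NDUFB3, NDUFB6, NDUFB8 and NDUFB10 of the distal arm. NDUFB3 had the largest uncalled rise in Ctrl-KD cells, 0.39 ± 0.15 (adjusted p = 0.0703), and was called without either RB-KD array (0.0161). NDUFA10 had the largest uncalled fall between the OIS states, -0.40 ± 0.14 (0.0722), and was called without Ctrl-KD replicate 1 (-0.64, 0.00416). NDUFA11 and NDUFB1 were called higher in RB-KD than in growing cells without either Ctrl-KD array (0.0308 and 0.0311, then 0.0443 and 0.0444), and NDUFB2 in Ctrl-KD cells without Ctrl-KD replicate 1 (0.0352). On their brightest probe sets, NDUFB6, NDUFB8, NDUFB10, NDUFA5 and NDUFA9 had changes of at most 0.11 in size in all 3 comparisons. A second probe set of NDUFB10, at 2304.8 to 3017, was higher in Ctrl-KD than in growing cells. Its change was 0.32 (adjusted p = 0.023) in a limma fit over all probe sets, beside 0.02 for the brightest one.

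The assembly factors build the enzyme in steps, the Q module and the membrane segments first and the N module last. Of the 8 NDUFAF genes, 4 were higher and 0 lower in Ctrl-KD than in growing cells, and all 8 changes were positive, with a median of 0.29, beside 20.5% and 21.2% and a median of -0.0094 over all tested genes. In RB-KD against growing cells, 2 were higher and 1 lower, near the 18.5% and 19% over all tested genes, with a median of 0.16 beside -0.015. In RB-KD against Ctrl-KD cells, 0 were higher and 4 lower, beside 12.6% and 11.6%, with a median of -0.36 beside -0.023. Without Ctrl-KD replicate 2, the medians were 0.163 in Ctrl-KD against growing cells and -0.228 between the OIS states. With the mean over all probe sets of a gene, the medians against growing cells were 0.154 in Ctrl-KD and -0.104 in RB-KD cells. The 4 rises in Ctrl-KD cells were 2 without growing replicate 2 or Ctrl-KD replicate 2, and the 4 falls between the OIS states were 1 without Ctrl-KD replicate 2 and 2 without RB-KD replicate 1. The 2 rises in RB-KD cells were 0 without growing replicate 1, growing replicate 2 or RB-KD replicate 2. By limma at an unadjusted p under 0.05, the 0 falls in Ctrl-KD cells stayed 0, and the 0 rises between the OIS states became 1, that of NDUFAF6.

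NDUFAF1, a part of the complex that assembles the proximal membrane segment, read 2039 and 1985 in growing, 3064 and 3279 in Ctrl-KD and 2188 and 2503 in RB-KD cells. The Ctrl-KD arrays lay above all others, and the RB-KD arrays lay between the states. Its change was 0.66 ± 0.10 (adjusted p = 0.000632) in Ctrl-KD against growing cells. Between the OIS states it was -0.44 ± 0.10 (0.0123), lost without Ctrl-KD replicate 2 (0.053) or RB-KD replicate 1 (0.0794).

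NDUFAF7, a mitochondrial methyltransferase, read 538 and 467 in growing, 729 and 872 in Ctrl-KD and 595 and 488 in RB-KD cells. Its changes were 0.67 ± 0.16 (adjusted p = 0.00833) in Ctrl-KD against growing cells and -0.57 ± 0.16 (0.0318) between the OIS states. The rise was lost without growing replicate 2 (0.0648) or Ctrl-KD replicate 2 (0.0562), and the fall without Ctrl-KD replicate 2 (0.15) or RB-KD replicate 2 (0.156). Both other tested probe sets of NDUFAF7 were also lower after RB knockdown, at -1.49 (0.00967) and -0.69 (0.0296) in a fit over all probe sets. The brightest one had an adjusted p of 0.0401 there. In the same fit, the first of these 2 was also lower in RB-KD than in growing cells, at -0.90 (0.0497). The brightest one changed by 0.11 in that comparison and was not called.

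NDUFAF3 and NDUFAF4 act together on the Q module, and their signals differed in course. NDUFAF3 read 2781 and 2688 in growing, 2646 and 3074 in Ctrl-KD and 1751 and 1910 in RB-KD cells. It was the only NDUFAF gene called lower against growing cells, with changes in RB-KD cells of -0.58 ± 0.10 (adjusted p = 0.00206) against growing and -0.64 ± 0.10 (0.00237) against Ctrl-KD cells, both kept without any 1 array. NDUFAF4 read 2245 and 2230, then 2884 and 3117, then 2683 and 2979, above the growing arrays in both OIS states. Its changes against growing cells were 0.42 ± 0.09 (0.00587) in Ctrl-KD and 0.34 ± 0.09 (0.0197) in RB-KD cells. The latter was lost without growing replicate 1 (0.101), growing replicate 2 (0.111) or RB-KD replicate 2 (0.113).

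NDUFAF5 and NDUFAF8 are partners, the first hydroxylating NDUFS7 and the second stabilizing the first. NDUFAF5 read 831 and 860 in growing, 891 and 992 in Ctrl-KD and 988 and 1005 in RB-KD cells, and was not called in any comparison. NDUFAF8 read 3821 and 4109, then 4452 and 5675, then 3809 and 4242. Its change of 0.34 ± 0.12 in Ctrl-KD cells (adjusted p = 0.0482) stayed called without Ctrl-KD replicate 1 and was lost without each of the other 5 arrays, with values up to 0.254 without Ctrl-KD replicate 2. The change itself was 0.17 without Ctrl-KD replicate 2 and 0.52 without Ctrl-KD replicate 1. NDUFAF8 was called lower between the OIS states without Ctrl-KD replicate 1 (-0.50, 0.0148).

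NDUFAF2, a relative of NDUFA12 that holds its place before the N module joins, read 2522 and 2456 in growing, 2777 and 3100 in Ctrl-KD and 2108 and 2383 in RB-KD cells. Its change between the OIS states was -0.39 ± 0.10 (adjusted p = 0.0229), lost without Ctrl-KD replicate 2 (0.0953) or RB-KD replicate 1 (0.13). NDUFAF6, an early-acting factor, had the opposite course. It read 1280 and 1209, then 1252 and 1440, then 1579 and 1852, highest in RB-KD cells. Its change was 0.46 ± 0.12 (0.0148) against growing cells, lost without growing replicate 1 (0.0534), growing replicate 2 (0.096) or RB-KD replicate 2 (0.1).

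**Figure D4:**
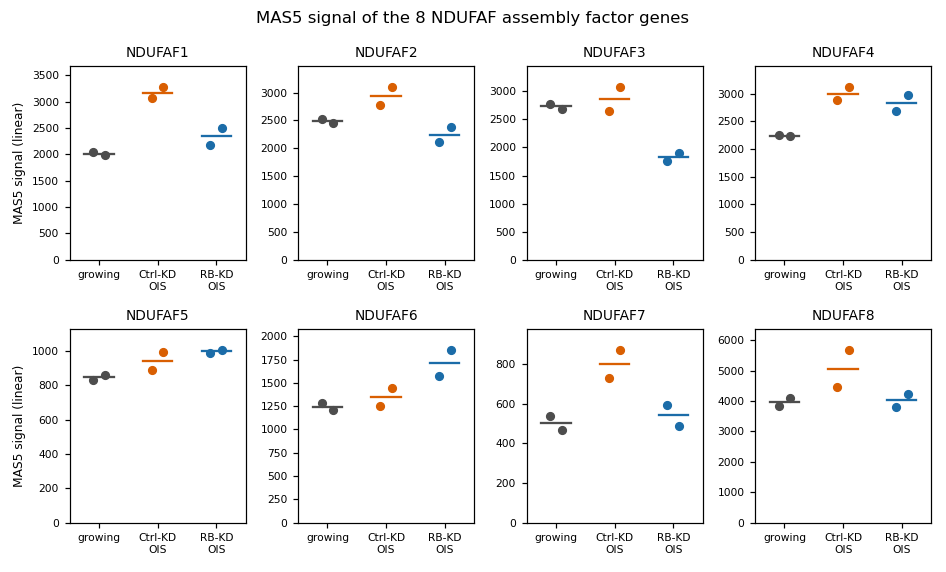
MAS5 signal on a linear scale from 0 (y axis) of the 8 NDUFAF genes in growing, Ctrl-KD and RB-KD cells (x axis). Points are single arrays and lines their mean, n = 2 in each state. NDUFAF1 and NDUFAF7 are highest in Ctrl-KD cells, NDUFAF3 is lowest and NDUFAF6 highest in RB-KD cells.

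Several of these genes (NDUFA3, NDUFAB1, NDUFAF1, NDUFAF4, NDUFB3, NDUFB5, NDUFB9, NDUFV2 and NDUFV3) are in a list of metabolic genes that the study drew from a clustering of these same arrays, so their direction there is not independent evidence.

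The 3 non-coding members were dim, at 51.4 to 257.3. NDUFB2-AS1, an antisense gene beside NDUFB2, read 75.6 and 90.7 in growing, 233.9 and 180 in Ctrl-KD and 182 and 199.4 in RB-KD cells. Its changes of 1.31 ± 0.27 (adjusted p = 0.00362) and 1.20 ± 0.27 (0.00654) against growing cells were the largest rises among the members, while NDUFB2 itself was not called. NDUFV1-DT, divergent from NDUFV1, read 257.3 and 140.1, then 105.2 and 52.3, then 115.2 and 164.2. Its change was -1.36 ± 0.43 (0.0317) in Ctrl-KD cells, lost without growing replicate 1 (0.225) or Ctrl-KD replicate 2 (0.174). NDUFV2-AS1 was not called.

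Of the 44 members, 25 had further probe sets. There were 38 such probe sets, and 23 of them were tested. In RB-KD against Ctrl-KD cells, 2 of these 23 had the opposite sign to the brightest probe set, compared with 9 in Ctrl-KD against growing and 13 in RB-KD against growing cells. Among the 7 with a mean signal of 500 or more, 3, 3 and 0 had the opposite sign in Ctrl-KD against growing, RB-KD against growing and RB-KD against Ctrl-KD cells. Their median distance from the brightest probe set was 0.079, 0.061 and 0.134 (log2) in the order of these comparisons, and it was 0.45, 0.84 and 0.37 among the dimmer ones.

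NDUFS7 had a second probe set at 5.2 to 119 that was highest in Ctrl-KD cells, with a change of 2.69 against growing cells (adjusted p = 0.0517), opposite to the bright one. A second probe set of NDUFB7, at 48.4 to 117.6, changed by 0.49 (0.527) between the OIS states, also opposite in sign. NDUFV3 had a second one at 315 to 475.3, which changed by 0.24 (0.254) in Ctrl-KD and -0.27 (0.213) in RB-KD against growing cells, and by -0.50 (0.0455) between the OIS states. The second probe set of NDUFAF4, at 285.7 to 508.5, changed by 0.42 (0.123) in Ctrl-KD cells and -0.10 (0.725) in RB-KD cells. NDUFS1 had a dimmer set at 130.5 to 284.4 that was lower in both OIS states, by -0.79 (0.0276) and -0.79 (0.0298). NDUFA10 had one at 49.8 to 116.2 that was higher in Ctrl-KD cells, by 1.14 (0.0297), and another at 4.7 to 58.2 with a change of -2.04 (0.205). NDUFA6 had a second probe set at 1099 to 1597 that was higher in RB-KD than in Ctrl-KD cells, by 0.41 (0.0365).

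Reading each gene as the mean of its probe sets ended further calls. The changes of NDUFB4 became 0.08 (adjusted p = 0.751) in Ctrl-KD and 0.24 (0.348) in RB-KD against growing cells. NDUFV3 had 0.16 (0.297) and NDUFAF4 0.12 (0.553) in RB-KD against growing cells, and NDUFAF7 had 0.50 (0.0685) in Ctrl-KD cells. NDUFS7 turned to 1.20 (0.0949) in Ctrl-KD and 0.75 (0.282) in RB-KD cells. NDUFAF8 turned to -0.41 (0.584) in Ctrl-KD cells, where NDUFV1-DT had -1.36 (0.0540). NDUFAF6 had 0.27 (0.255) and NDUFS4 -0.84 (0.197) in RB-KD against growing cells. The other probe sets of NDUFAF8 read 7 to 41.3 and 4 to 58.6, that of NDUFS4 read 1.3 to 8.3, and none of them was tested.

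**Figure D5:**
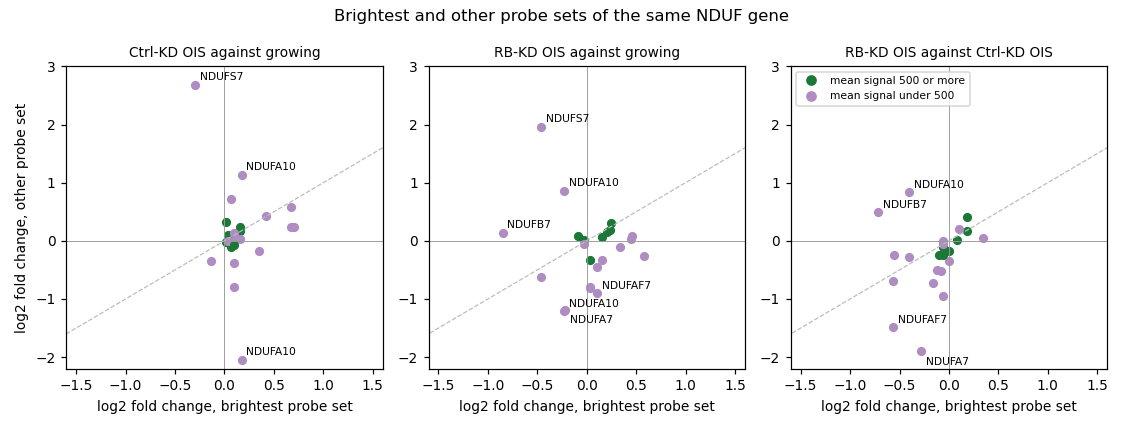
Log2 fold change of the brightest probe set of an NDUF gene (x axis) against that of each other tested probe set of the same gene (y axis), for 23 probe sets in each comparison. Green points had a mean signal of 500 or more and lie near the dashed line of equality, while purple points were dimmer and scatter away from it, NDUFS7 and NDUFA10 among them.

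Genes that act beside the members were read from lists of known function. Of 11 assembly factors of complex I without an NDUF symbol, 6 were higher and 2 lower in Ctrl-KD cells than in growing cells, 4 and 2 in RB-KD cells, while 2 were raised and 2 lowered by RB knockdown within OIS. Over all tested genes, the shares were 20.5% and 21.2%, 18.5% and 19%, and 12.6% and 11.6% in the same order. The 2 falls of each comparison make 18.2% of the list, as do the 2 rises within OIS. TMEM126B, a partner of NDUFAF1, read 5526 and 5766 in growing, 8283 and 9351 in Ctrl-KD and 5740 and 6051 in RB-KD cells. It changed by 0.64 ± 0.09 (adjusted p = 0.000353) in Ctrl-KD cells and by -0.58 ± 0.09 (0.00176) between the OIS states. TIMMDC1 of the same complex was also higher in Ctrl-KD cells, by 0.66 (0.000629), but ECSIT, another partner, was lower in both OIS states, by -0.88 (0.0384) and -1.23 (0.00933). TMEM70, known for the assembly of ATP synthase and of complex I, was higher in both, by 0.99 (4.09e-05) and 1.42 (6.62e-06), and NUBPL, which delivers iron-sulfur clusters, was lower in both, by -0.65 (0.0174) and -0.69 (0.0151).

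Of 9 genes of other enzymes that feed electrons into ubiquinone, 2 were higher and 2 lower in Ctrl-KD cells, 1 and 1 in RB-KD cells, both against growing cells, and 2 were higher and 1 lower between the OIS states. Higher and lower each made 22.2% of this list in Ctrl-KD cells, near the 20.5% and 21.2% over all tested genes, and 11.1% in RB-KD cells, beside 18.5% and 19%. Between the OIS states they made 22.2% and 11.1%, beside 12.6% and 11.6%. SQOR, which oxidizes sulfide, had signals of 2107 and 2375 in growing cells and of 8236 to 9423 on the 4 OIS arrays, a change of 1.93 (adjusted p = 7.15e-07) in Ctrl-KD cells. GPD2, the mitochondrial glycerol-3-phosphate dehydrogenase, was lower in Ctrl-KD than in growing cells (-0.95, 0.00117) and higher in RB-KD than in Ctrl-KD cells (1.04, 0.00177). The membrane anchor SDHC of complex II was lower between the OIS states (-0.51, 0.00731), whereas its catalytic subunit SDHA was higher (0.32, 0.0336). SDHD was not called there (-0.13), and SDHB had no probe set naming it alone and was not read.

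Of 10 tested regulators of mitochondrial biogenesis, 6 were higher and 1 lower in Ctrl-KD than in growing cells, 4 and 1 in RB-KD than in growing cells, and 0 and 1 in RB-KD than in Ctrl-KD cells, where limma gave 0 rises also at an unadjusted p under 0.05. The shares over all tested genes were 20.5% and 21.2%, 18.5% and 19%, and 12.6% and 11.6%, and the single falls make 10% of the list. TFAM, which packages and transcribes mitochondrial DNA, rose by 0.49 (adjusted p = 0.00787) in Ctrl-KD and 0.74 (0.000927) in RB-KD cells. PPARGC1B, a coactivator, read 37.9 and 18.8 in growing cells and 130.3 to 189.8 on the OIS arrays. NRF1, a transcription factor known at many respiratory chain promoters, read 405 and 285 in growing and 213 to 240 on the OIS arrays, a change of -0.60 (0.0498) in Ctrl-KD cells. The single fall between the OIS states was that of TFB2M (-0.36, 0.0232), and COXFA4 was lower there too (-0.27, 0.0376).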

How the data were processed

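RNA of 6 cultures was measured on Affymetrix U133 Plus 2.0 arrays. Per the labels, the authors made the deposited values with MAS5 in Affymetrix Expression Console (versions not given in the sources used here), as linear signal intensities scaled to 1 level on each array: the trimmed means were 496.2 to 496.5. Replicate arrays correlated at 0.971 to 0.974 and arrays of different states at 0.893 to 0.953, and the 2 arrays of each state limit the precision.

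Intensities were taken to log2 without an offset. Of 54613 probe sets, the platform annotation gave 1 gene for 41091, several for 1801 and none for 11721. Genes were tested if their signal exceeded the median of 2 or more arrays, in R 4.3.3 with limma 3.58.1, with 1 mean for each state over all 6 arrays, a variance trend and Benjamini-Hochberg adjustment. An exact permutation test of 2 against 2 arrays cannot go below 0.333. The procedure was also run on simulated data with noise set by signal level. Its first pass condition, on the share of large changes called, was not met and was then replaced. No value from that run is used here. The members and lists were chosen with earlier results of these data known. Values on every array were given for the core subunits, the NDUFAF genes, the 6 largest called rises and falls of each comparison and members whose probe sets differed in direction, the last only in part. Other normalizations, filters and probe set rules and leaving out each array were tried.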

Additional observations from a re-analysis of the deposited data

How the results depend on the processing

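With 2 arrays in each state, small changes rest on single arrays. Of 46 called member changes, 25 stayed called without any 1 array and 21 were lost without at least 1, and all 46 stayed called with an offset. Averaging the probe sets of a gene lost 13 and reversed 4. Without the variance trend 21 were lost: NDUFA1, NDUFA8, NDUFAB1, NDUFB4, NDUFS3, NDUFS7, NDUFAF8 and NDUFV1-DT in Ctrl-KD cells, NDUFA6, NDUFA12, NDUFB9, NDUFS4, NDUFS6, NDUFAF4 and NDUFAF6 in RB-KD against growing cells, and NDUFB5, NDUFB7, NDUFB9, NDUFAF1, NDUFAF2 and NDUFAF7 between the OIS states. Of the called changes with another tested probe set, that probe set kept 2, lost 9 and reversed 7. The cause of the moves was not tested.

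Leaving out 1 array gave the following ranges. Rises in Ctrl-KD against growing cells were 6 to 13 for subunits and 2 to 4 for NDUFAF genes, and subunit falls 0 to 3. In RB-KD against growing cells they were 4 to 11 and 0 to 2, with 3 to 5 subunit falls. In RB-KD against Ctrl-KD cells, 4 to 8 subunits and 1 to 5 NDUFAF genes fell.

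Subunit rises in Ctrl-KD cells were 7 after quantile normalization and 6 without the variance trend. Subunit falls there were 4 after quantile normalization, 2 with a filter at the 70th percentile, and 0 with median centring, the mean of all probe sets or no trend. NDUFAF rises there were 2 with the mean of probe sets. In RB-KD against growing cells, subunit rises were 13 with median centring, 11 in a fit of only those states and 4 without the trend. Subunit falls were 3 with median centring, 1 with the mean of probe sets and 3 without the trend. NDUFAF rises were 4 with median centring and 0 with the mean of probe sets or no trend. Between the OIS states, subunit rises were 4 and falls 3 with the mean of probe sets, and falls 3 without the trend. NDUFAF falls were 1 without the trend, and NDUFAF rises 1 with the 70th percentile filter.

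Medians in RB-KD against growing cells turned to -0.000109 for subunits (quantile) and -0.104 for NDUFAF genes (mean of probe sets). The mean of probe sets also turned NDUFA2 (0.053) and NDUFA5 (1.30, adjusted p = 0.0329) between the OIS states. The other probe set of NDUFA5 read 1.7 to 12.7 and was not tested, beside 3329 to 4143 for the brightest one. The mean also turned NDUFAF8 (-0.41) and NDUFS7 (1.20) in Ctrl-KD cells, and NDUFS7 (0.75) in RB-KD against growing cells. Other probe sets turned NDUFB4 (-0.18), NDUFS1 (-0.79) and NDUFS7 (2.69) in Ctrl-KD cells. They turned NDUFAF4 (-0.10), NDUFAF7 (-0.90), NDUFB7 (0.13), NDUFS1 (-0.79), NDUFS7 (1.96) and NDUFV3 (-0.27) in RB-KD against growing cells, and NDUFB7 (0.49) between the OIS states.

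Same-numbered replicates shared little deviation over all tested genes (r of -0.00384, 0.0102 and 0.0350). This cannot tell whether the numbers pair the arrays, since paired arrays may also share little. With the replicate block, all 46 calls were kept and 4 more passed, among them NDUFAF6, so that 1 NDUFAF gene rose between the OIS states.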
